A study of Rattus norvegicus with 6 samples.

Results

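Expression of 8 genes of cholesterol synthesis was examined in the spinal cord of adult Lewis rats. The animals had an experimental form of neuromyelitis optica (ENMO), autoimmune encephalomyelitis (EAE), or neither disease. The genes were Hmgcs1, Idi1, Fdps, Fdft1, Sqle, Lss, Cyp51 and Dhcr7, chosen by name out of 16024 genes with a symbol on the array. Together they had 14 probes, 12 of them carrying the gene symbol as their name and 1 naming it in the description. The remaining probe (A_44_P1020541, target TC590058) was assigned to Sqle because its description gives the complete squalene monooxygenase, the enzyme that Sqle encodes.

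There were 6 arrays, 1 for each group of animals. ENMO rats had received T cells specific for myelin basic protein (MBP) on day 0 and NMO-IgG, the IgG of a patient with neuromyelitis optica, on day 4. The EAEcoI and EAEcoP rats had received the same T cells followed by commercial human control IgG or by PBS. The groups without T cells had received NMO-IgG only or control IgG only on day 4, or had been left untreated (healthy control). Tissue was taken 24 hours after the injection of antibody or PBS. Each array held RNA pooled from formalin-fixed, paraffin-embedded cord sections of 5 rats, or 3 in the healthy control, so that differences between animals were not measured and a lower signal can stand for fewer cells of a type or for less RNA per cell. The disease was induced by passive transfer of T cells and human antibody and not by immunization of the rats. In what follows, EAE is the mean of EAEcoI and EAEcoP, all T is the mean of the 3 arrays with T cells and all non-T that of the 3 arrays without.

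Cholesterol is made from acetyl-CoA through mevalonate, farnesyl diphosphate, squalene and lanosterol. Since plasma lipoproteins hardly pass the blood-brain barrier, the central nervous system makes its own cholesterol, and most of it lies in the myelin that oligodendrocytes form. Transcription of the enzymes is driven by the sterol regulatory element binding protein Srebf2, which is held back by Insig1 and Insig2 when sterols are plentiful.

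Signals are given as normalized signal intensities (NSI), and a probe is called detected on an array where the scanner software marked it well above background. Between repeated spots of the 263 probes with 10 spots, the pooled SD was 0.576 on the log2 scale, so a difference below 0.815 (1.76-fold) between a pair of arrays was within the spread between spots. Over detected spots alone this limit was 0.514. The limit is the SD of a difference between single spots, and it was also applied to means of arrays. Since it was taken from spots within arrays, it holds no variation between arrays or animals. The arrays with T cells had 44.4% to 60.2% of their spots detected and those without had 35.4% to 41.7%. The differences depended on brightness: over the 27294 tested probes with values on all arrays the median of all T minus all non-T was 0.01 (log2), but over the 246 probes with a mean log2 NSI of 11 or more it was -0.51, and the medians of ENMO minus EAE were 0.03 and 0.79. Of the cell type markers set out for these samples, all 13 oligodendrocyte genes measured were detected on at least 1 array, as were 9 of 10 astrocyte genes (not Slc1a3), 8 of 9 neuronal genes (not Syt1), all 10 myeloid genes and 5 of 8 T cell genes (not Cd2, Cd28 and Cd3e).

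In this material, the brighter probes of Hmgcs1 and Sqle were lower with T cells and lowest in EAE. Their adjusted p for T cells was 0.23 and 0.391, respectively (limma). By the other probe of each gene, the arrays with and without T cells overlapped. Idi1 and Dhcr7 differed by less than the spread between spots, and Fdps gave probes that did not follow the T cells. Lss and Cyp51 were detected on the EAEcoP array only, and Fdft1 was not detected on any array. Of the 14 probes, 5 were detected on all 6 arrays, 7 on some and 2 on none, and 12 were tested.

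**Figure D1:**
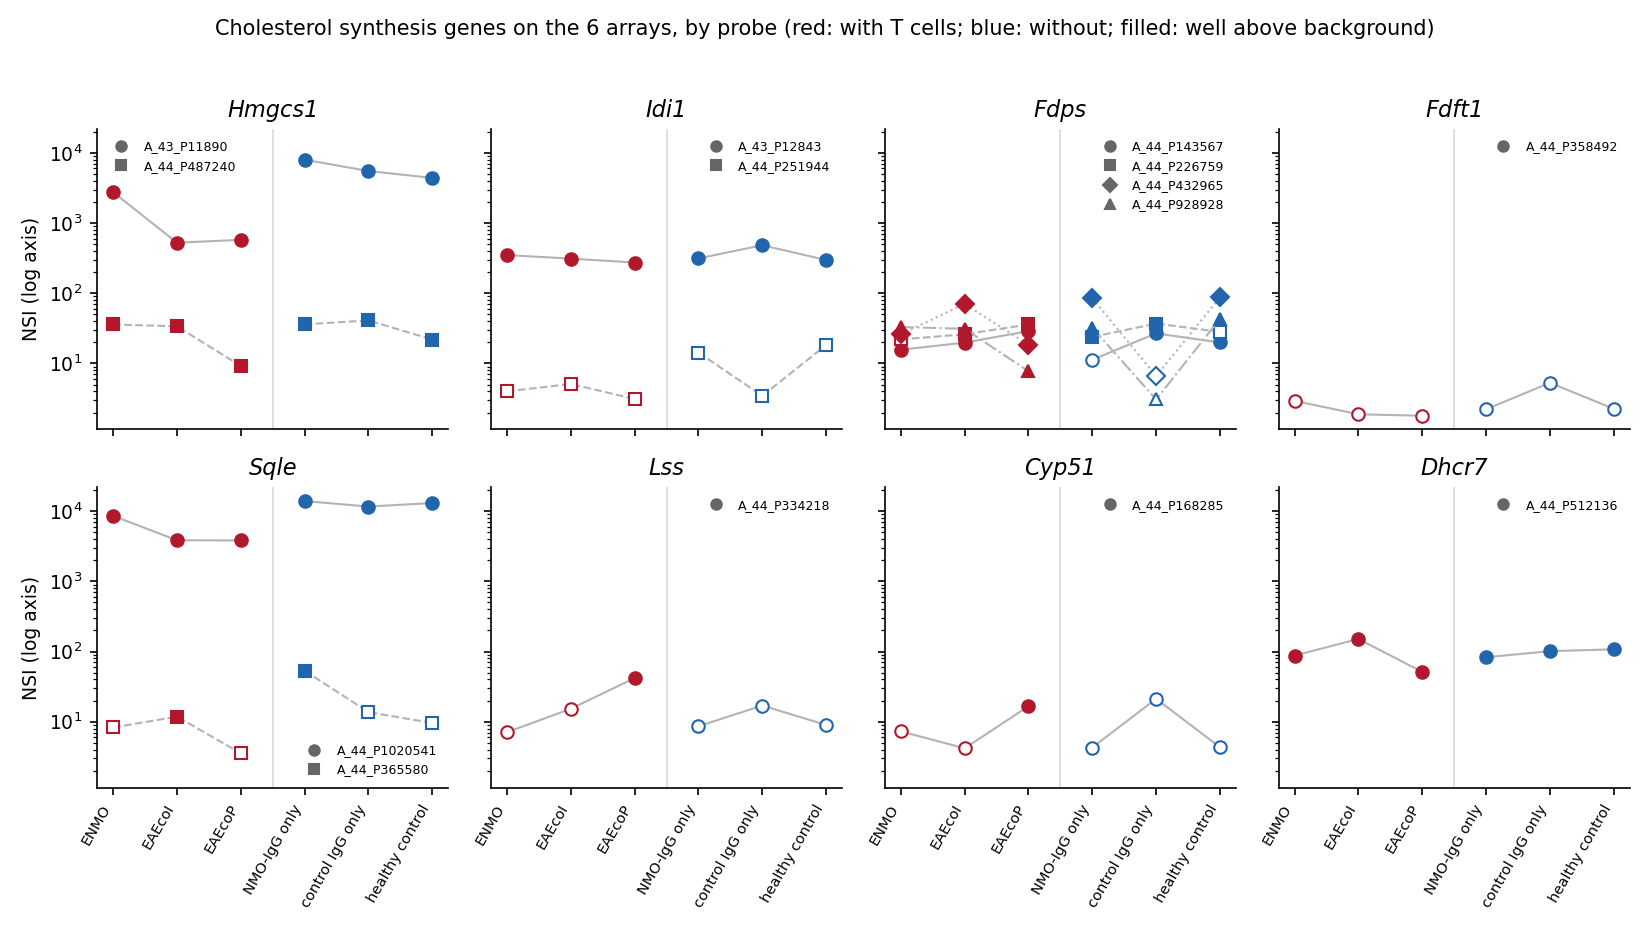
NSI (log axis) of each of the 14 probes of the 8 genes on the 6 arrays, with red points for arrays with T cells, blue points for arrays without and open points where the probe was not well above background. The brightest probes of Hmgcs1 and Sqle lie lower on the 3 arrays with T cells than on the 3 without, with ENMO above both EAE arrays.

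Hmgcs1 encodes the cytosolic HMG-CoA synthase, which condenses acetyl-CoA with acetoacetyl-CoA early in the pathway. The gene lies at chr2:53379457-53399807 (GRCr8). Its probes are shown because they gave different results, and both are printed from the first base of the probe, 30 of 60 bases each. In the annotation of the array, whose genome build is not given in the sources used here, they lie 2616 bases apart on chromosome 2, the brighter probe at chr2:51754420-51754478 and the other at chr2:51751804-51751863.
Hmgcs1 A_43_P11890: ctgtatgttttgaaaagaataatttaacgt
Hmgcs1 A_44_P487240: tattccccagtgttcaatagattcactctt

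The brighter probe of Hmgcs1 was detected on every array. Its NSI was 2754 on the ENMO array, 525 on the EAEcoI array and 577 on the EAEcoP array. Without T cells it was 4395 in the healthy control, 5510.5 with control IgG only and 7988 with NMO-IgG only. All 3 arrays with T cells lay below all 3 without, and ENMO lay between the EAE arrays and the arrays without T cells. All T was 6.14-fold lower than all non-T, a log2 difference of -2.62 ± 0.71 (SE, 3 arrays against 3). This was the 59th lowest value of the 27294 probes and the 6th lowest of the 246 bright ones. The limma test across all probes gave p = 0.00439 and an adjusted p of 0.23, and the exact permutation test gave p = 0.10 (two-sided), the smallest that 3 against 3 arrays allow. Within slide 1 the log2 difference was -2.13 and within slide 2 it was -3.50. Without the ENMO array it was -3.39, with an adjusted p of 0.0466 by limma. In that fit 212 of 27287 probes were called, 204 of them higher with T cells. With any other single array left out, Hmgcs1 was not called.

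The other probe of Hmgcs1 gave an NSI of 35.9 for the ENMO array, 33.8 for the EAEcoI array and 9.21 for the EAEcoP array. It gave 21.9 in the healthy control, 41.0 with control IgG only and 36.1 with NMO-IgG only. Only EAEcoP lay below the arrays without T cells here, and the groups overlapped. The log2 difference of -0.51 was within the spread between spots (adjusted p = 0.769, limma). It was -1.17 within slide 1 and 0.27 within slide 2. The lower signal of Hmgcs1 with T cells thus rests on the brighter probe. The brighter probe lies in column 4 of the 85 columns of the array, near its edge. The neighbouring spots deviated by -0.58 (log2) on the ENMO array, 0.54 on the EAEcoI array and 0.31 on the EAEcoP array. After removal of this local trend the NSI of Hmgcs1 was 4109, 350 and 454, respectively, and between 4277 and 7785 without T cells.

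Sqle encodes the epoxidase that opens the sterol part of the pathway and limits its rate. The gene lies at chr7:92758175-92773049 (GRCr8), and the array places its probes 14711 bases apart, at chr7:96096738-96096797 for the brighter and chr7:96111449-96111508 for the other. Their first 30 of 60 bases are given because the probes differ in level and in naming. The brighter probe was assigned by its description, and the bases were not used for this.
Sqle A_44_P1020541: atctgactcgtgatcctaaaactattgacc
Sqle A_44_P365580: gtgctctataatatttcctctcatctattc

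The brighter probe of Sqle was likewise detected on every array. Its NSI was 8555 on the ENMO array, 3839 on the EAEcoI array and 3820.5 on the EAEcoP array. Without T cells it was 13034 in the healthy control, 11609.5 with control IgG only and 13884 with NMO-IgG only. The order was that of Hmgcs1, with the EAE arrays lowest, ENMO next and no overlap between arrays with and without T cells. Sqle was lower by 2.56-fold in all T, with a log2 difference of -1.36 ± 0.54 (SE), an adjusted p of 0.391 (limma, p = 0.0316) and p = 0.10 by the exact permutation test. Within slide 1 it was -1.02 and within slide 2 it was -1.81. Unlike Hmgcs1, Sqle was not far from other bright probes, ranking 45th lowest of 246, and the 57 probes with a mean log2 NSI of 12 to 13 had a median of -0.84 and a 5th percentile of -2.11.

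The other probe of Sqle, which carries the symbol, was detected in EAEcoI with an NSI of 11.8 and in NMO-IgG only with 53.2. On the arrays where it was not detected the NSI was 8.28 in ENMO, 3.55 in EAEcoP, 9.57 in the healthy control and 13.7 with control IgG only. NMO-IgG only thus stood above the rest, 3.89-fold above the undetected value with control IgG only, and the other arrays with and without T cells overlapped. The log2 difference of all T minus all non-T was -1.44, past the spread between spots, with an adjusted p of 0.49 (limma).

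**Figure D2:**
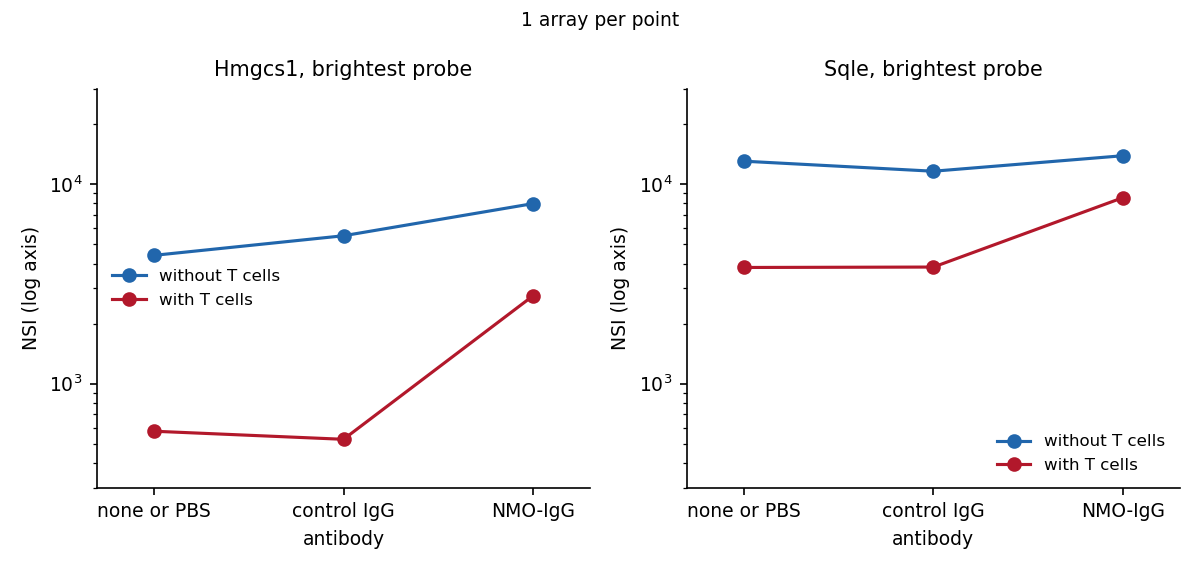
NSI (log axis) of the brightest probe of Hmgcs1 and of Sqle by antibody, with 1 array per point, red with T cells and blue without. With T cells and NMO-IgG (ENMO) both genes lie between the EAE arrays and the arrays without T cells.

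Among all probes tested, 6.79% had the 3 arrays with T cells below the 3 without and 11.3% had them above. Among the 246 bright probes the first share was 13.8%. Hmgcs1 and Sqle were the 2 of 7 measured genes with such a gap, and they were also the 2 that were lower past the spread between spots, against 16.3% of all probes and 42.3% of the bright ones. None of the 7 genes was higher with T cells past the spread, against 21.2% of all probes. The median log2 difference of the 7 genes was -0.18, beside 0.01 over all probes. No probe of the members passed an adjusted p of 0.05 in limma, where 0.0% of all 27488 probes did and 3149 had an unadjusted p below 0.05.

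When ENMO was compared with EAE, the brighter probe of Hmgcs1 was higher in ENMO by 5.0-fold on average, by 5.24-fold over EAEcoI and 4.78-fold over EAEcoP. The brighter probe of Sqle exceeded its EAE mean in ENMO by 2.23-fold, with 2.23-fold over EAEcoI and 2.24-fold over EAEcoP. These log2 differences, 2.32 and 1.16, exceeded the spread between spots, as did an increase in 21.9% of all probes and in 49.2% of the bright probes. Among the latter Hmgcs1 ranked 23rd and Sqle 94th from the highest, so that a higher signal in ENMO was shared by many bright probes. The difference of Sqle fell within the spread with the mean over probes, at 0.76, and by its other probe, at 0.36. The adjusted p was 0.816 for Hmgcs1 and 0.884 for Sqle (limma, with ENMO as a lone array assumed to vary like the other groups), and 0.0% of all probes were called. The dimmer probe of Hmgcs1 was 3.90-fold higher in ENMO than in EAEcoP but differed by a log2 value of 0.09 from EAEcoI, and that of Sqle was detected on neither ENMO nor EAEcoP. For the brighter probes of Hmgcs1 and Sqle, all T lay below all non-T and ENMO above both EAE arrays past the spread. This pattern was seen in 0.648% of all probes and 6.5% of the bright ones.

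By the brighter probes of Hmgcs1 and Sqle, ENMO itself stayed below the arrays without T cells. Hmgcs1 was 2.10-fold lower in ENMO than in all non-T and 2.90-fold lower than in NMO-IgG only, both past the spread. With the local trend removed, the first of these log2 differences moved from -1.07 to -0.56, within the spread, and the second from -1.54 to -0.92. For Sqle the folds were 1.5 and 1.62, within the limit of 0.815 over all spots but past that of 0.514 over detected spots. By comparison, Hmgcs1 was 10.5-fold lower in EAEcoI than in control IgG only and 7.62-fold lower in EAEcoP than in healthy control. Sqle was 3.02-fold and 3.41-fold lower. By the other probe of Hmgcs1, ENMO was 1.13-fold higher than all non-T, within the spread. With that probe EAEcoI was 1.21-fold lower than control IgG only, within the spread, and EAEcoP 2.38-fold lower than healthy control, past it. Whether the difference made by T cells depended on the antibody could not be tested with 1 array per group.

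In the absence of T cells, most differences between antibodies were within the spread by the brighter probes of Hmgcs1 and Sqle. Hmgcs1 was 1.45-fold higher with NMO-IgG only than with control IgG only, within the spread, and 1.82-fold higher than in healthy control, a log2 difference of 0.86 that just exceeded it. Sqle was 1.20-fold and 1.07-fold higher, both within the spread. The dimmer Sqle probe, detected among these arrays with NMO-IgG only, stood 3.89-fold above its undetected value with control IgG only. Set against the lowest detected NSI in healthy control, it was 4.84-fold higher. Both folds were past the spread. The other probe of Hmgcs1 was lower with NMO-IgG only than with control IgG only (NSI 36.1 against 41.0). In ENMO it was slightly higher than in EAEcoI (35.9 against 33.8). The other probe of Sqle was lower in ENMO, where it was not detected, than in EAEcoI (8.28 against 11.8). By their brighter probes, Hmgcs1 and Sqle were thus higher with NMO-IgG than with control IgG both with and without T cells. The same was seen in 22.1% of all probes. With T cells as a block, the log2 difference between NMO-IgG and control IgG was 1.46 ± 0.80 (SE) for Hmgcs1 and 0.71 ± 0.76 for Sqle, and limma called neither (adjusted p = 1.0) and 0.0% of all probes.

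Idi1 encodes the isomerase that interconverts the isoprenoid building blocks. Its brighter probe was detected on all arrays, at 349.6 on the ENMO array, 312 on the EAEcoI array, 274 on the EAEcoP array, 297 in the healthy control, 483.5 with control IgG only and 313 with NMO-IgG only (NSI). The groups overlapped, and only control IgG only stood somewhat above the rest. The log2 difference of all T minus all non-T was -0.20 ± 0.50 (SE; adjusted p = 0.889, limma). Its other probe was not detected on any array, and its NSI of 3.12 to 18.3 was not used.

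Fdps encodes the synthase of farnesyl diphosphate, from which the isoprenoid branch departs, and was covered by 4 probes. The brightest (A_44_P432965) reached an NSI of 26.0 on the ENMO array, 70.3 on the EAEcoI array, 18.5 on the EAEcoP array, 87.6 in the healthy control and 84.9 with NMO-IgG only, and was not detected with control IgG only, at 6.63. These values followed the slides, since EAEcoI, NMO-IgG only and healthy control shared slide 2, and all 3 lay above the 3 arrays of slide 1. Such a split by slide was seen in 7.87% of all probes in this direction and in 7.86% in the other. All T minus all non-T was -0.18 ± 1.0 (log2, SE), but 1.73 within slide 1 and -0.30 within slide 2.

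Fdps probe A_44_P928928 was likewise undetected with control IgG only, but its slides overlapped, at an NSI of 33.0 on the ENMO array, 31.2 on the EAEcoI array, 7.76 on the EAEcoP array, 43.3 in the healthy control and 32.4 with NMO-IgG only, and 3.07 with control IgG only. The array annotation places it 3.93 Mb from the brightest Fdps probe. The remaining Fdps probes were steadier. A_44_P143567 ranged from 11.3, where it was not detected, in NMO-IgG only to 28.9 in EAEcoP, and A_44_P226759 ranged from 22.0 in ENMO, not detected, to 37.0 for control IgG only. In these 2 probes all T and all non-T differed by 0.19 and -0.09 (log2). Thus no Fdps probe differed with T cells past the spread, and the probes did not share a pattern over the arrays.

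Fdft1, squalene synthase, had 1 probe, which was not detected on any array at an NSI of 1.80 to 5.31. No comparison of Fdft1 was therefore possible. Lss, which folds the squalene epoxide into lanosterol, was detected in EAEcoP only, with an NSI of 41.8. On the other arrays its NSI was 7.07 in ENMO, 15.3 in EAEcoI, 8.98 in the healthy control, 17.0 with control IgG only and 8.61 with NMO-IgG only. Set against the lowest NSI of a detected probe on each array, EAEcoP was 5.1-fold higher than ENMO and 3.8-fold higher than healthy control. Lss was the only member counted as lower in ENMO than in EAE past the spread, as were 23.6% of all probes. This difference of -1.84 (log2) rests on undetected values in ENMO and EAEcoI, and was -0.14 with the normexp background correction and -0.19 without background correction, both within the spread.

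Cyp51, the demethylase that acts on lanosterol, was likewise detected in EAEcoP only, with an NSI of 16.6. The highest value was 21.2 for control IgG only, where it was not detected, and the others were 4.18 to 7.29. Its arrays split by slide, with all 3 of slide 1 above those of slide 2, and no fold with T cells is given, since the limit was below 1. Dhcr7, the reductase at the end of the pathway, was detected on all arrays, at an NSI of 87.7 on the ENMO array, 150.6 on the EAEcoI array, 51.2 on the EAEcoP array, 107.4 in the healthy control, 101.2 with control IgG only and 82.8 with NMO-IgG only. The groups overlapped, and the highest and the lowest value both came from EAE. All T minus all non-T was -0.14 ± 0.56 (log2, SE; adjusted p = 0.937, limma), and ENMO and EAE differed by 0.00.

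**Figure D3:**
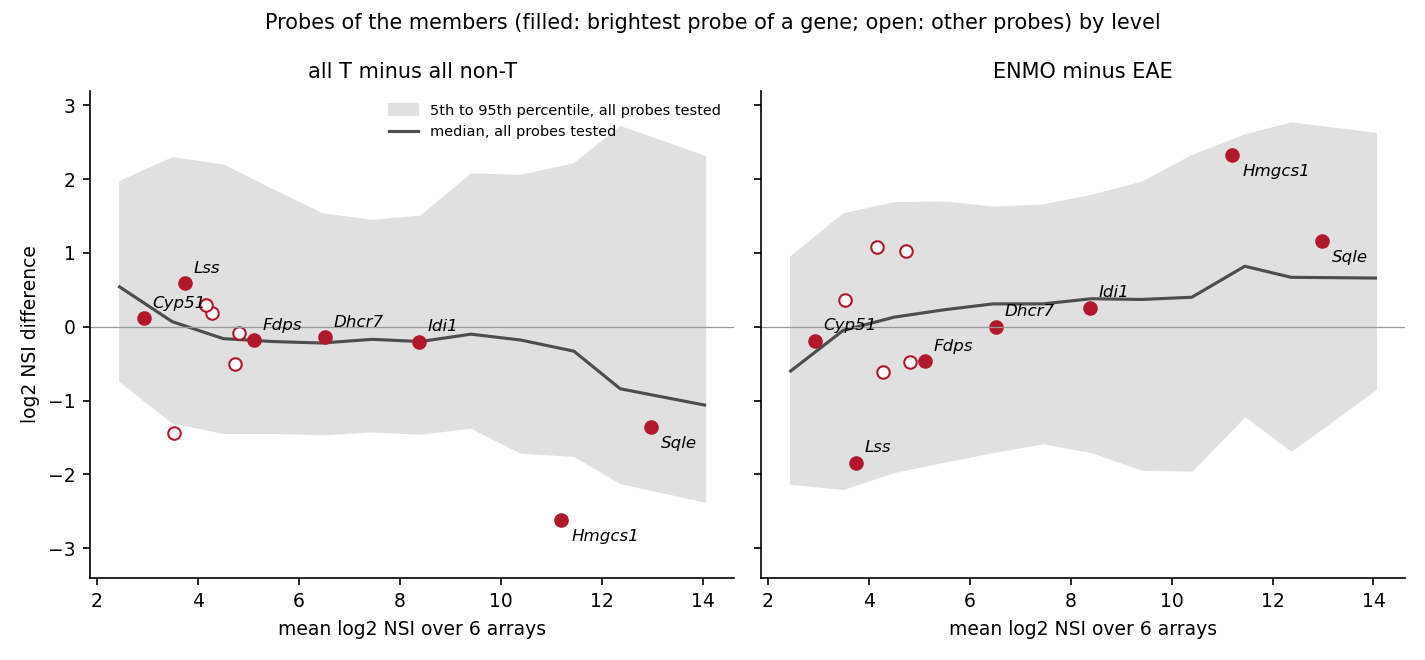
Log2 NSI difference of all T minus all non-T (left) and of ENMO minus EAE (right) for the 12 tested probes of the members against their mean log2 NSI over 6 arrays, with the median (line) and the 5th to 95th percentile (band) of all probes tested at that level. Hmgcs1 lies below the band on the left, at -2.62, and the dimmer Sqle probe lies just below it, at -1.44 against -1.29, while the other tested probes lie within it.

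The other enzymes of the pathway were looked up to see how far the members stood for it. Of 13 measured, 11 were detected on at least 1 array, among which 4 were lower and 1 was higher with T cells past the spread, with a median log2 difference of -0.60. Mvd, which forms isopentenyl diphosphate, gave an NSI of 133 for the ENMO array, 114 for the EAEcoI array, 95.5 for the EAEcoP array, 773 in the healthy control, 707 with control IgG only and 186 with NMO-IgG only. All T lay below all non-T and was 4.13-fold lower (adjusted p = 0.281, limma), but NMO-IgG only stood close to ENMO.

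Msmo1, a methyl sterol oxidase, gave an NSI of 377 for the ENMO array, 127 for the EAEcoI array and 551 for the EAEcoP array, with 893 in the healthy control, 1845 with control IgG only and 589 with NMO-IgG only. The groups did not overlap, although EAEcoP and NMO-IgG only were close, and all T was 3.32-fold lower (adjusted p = 0.396, limma). Lbr, a sterol reductase of the nuclear envelope, was detected in ENMO at an NSI of 12.4 and in EAEcoI at 8.37, but not in EAEcoP, and had 15.6 to 25.5 without T cells. The exception was Pmvk, the phosphomevalonate kinase, which was detected on the 3 arrays with T cells only, with an NSI of 22.1, 17.7 and 123. Set against the lowest detected NSI of each array without T cells, it was 3.17-fold higher. Ggps1, which makes geranylgeranyl diphosphate, was not detected on any array.

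Taking members and other enzymes together, 18 genes were detected on at least 1 array, of which 6 were lower and 1 was higher with T cells past the spread. Of the 10 detected on all 6 arrays, 9 had a negative log2 difference and 5 of these were past the spread, with a median of -0.84. Of all probes detected on every array, 64.7% had a negative difference and 21.4% were lower past the spread, with a median of -0.29. In the comparison of ENMO with EAE, 8 of these 10 genes were higher in ENMO, 4 of them past the spread, against 66.8% and 30.8% of all probes detected on every array. Besides Hmgcs1 and Sqle these included Ebp, a sterol isomerase, at an NSI of 2354 on the ENMO array, 358 on the EAEcoI array and 637 on the EAEcoP array. Unlike the brighter probes of Hmgcs1 and Sqle, Ebp was not lower in ENMO than on the arrays without T cells, where its NSI was 1160 to 1771. The log2 difference of ENMO from all non-T was 0.79 for Ebp, within the spread.

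**Figure D4:**
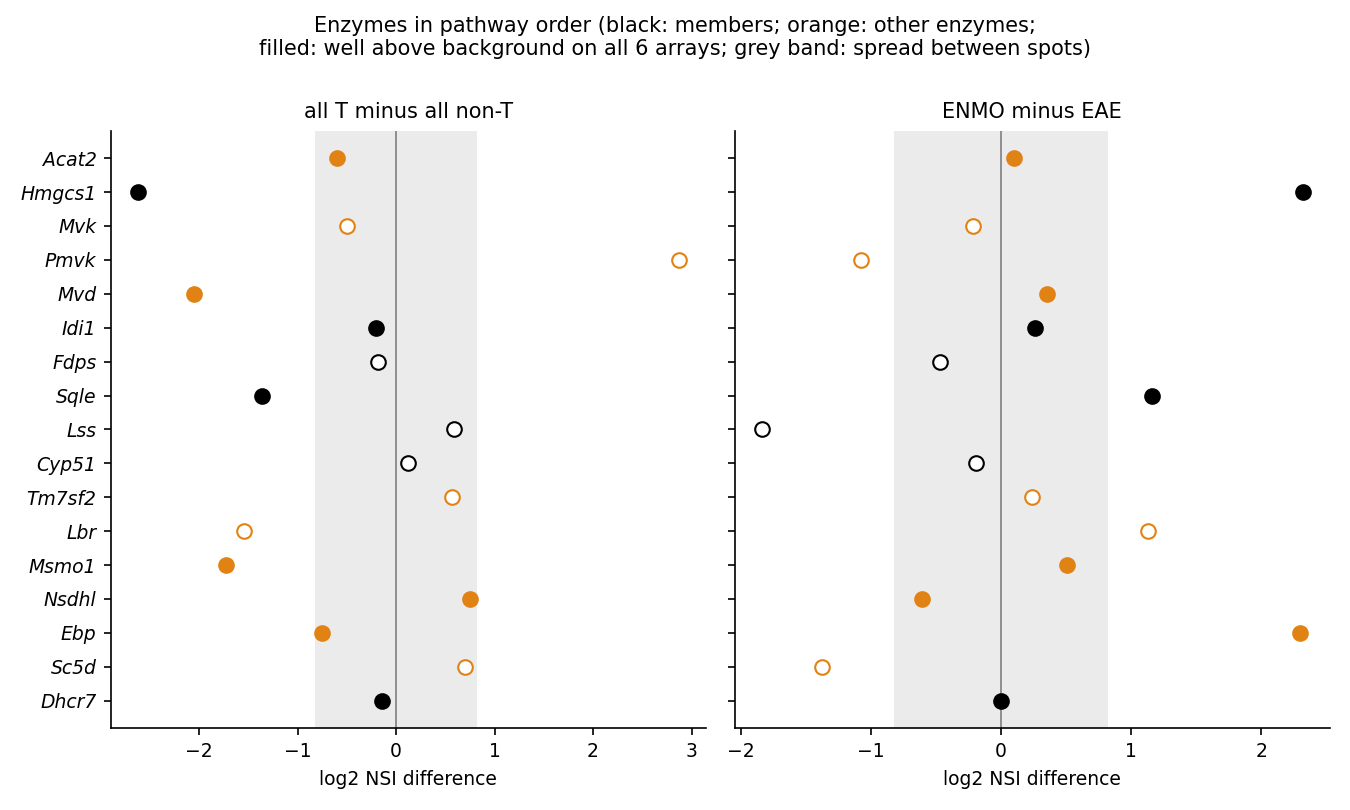
Log2 NSI difference of all T minus all non-T (left) and of ENMO minus EAE (right) for the brightest probe of members and other enzymes in pathway order, with members in black, other enzymes in orange, filled points for genes detected on all 6 arrays and a grey band for the spread between spots (0.815 on either side of 0). Hmgcs1, Sqle, Mvd, Msmo1 and Lbr lie below the band on the left and Pmvk above it.

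Of the 10 detected genes of sterol sensing and uptake, 1 was lower and 2 were higher with T cells past the spread. Srebf2 gave an NSI of 106.9 for the ENMO array, 61.4 for the EAEcoI array and 38.7 for the EAEcoP array, and of 57.3 to 109.1 without T cells, so that its groups overlapped. The log2 difference was -0.19, and 1.14 by its other probe. Insig1 was 2.83-fold higher with T cells by its brightest probe, with 134 in EAEcoI as the highest value, but another of its probes differed by -2.58 (log2), so that no direction is given. Insig2 was counted as lower but was detected on 2 of 6 arrays, so that no fold is given.

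Among 13 detected genes of cholesterol transport, storage and turnover, 4 were lower and 2 were higher with T cells past the spread, with a median of -0.19. Cyp7b1, an oxysterol hydroxylase, was 3.40-fold lower, at an NSI of 42.5 on the ENMO array, 7.67 on the EAEcoI array (not detected) and 7.29 on the EAEcoP array, against 27.8 to 61.2 without T cells. Its EAE arrays were the low ones, and ENMO lay within the range without T cells. Lcat, which esterifies cholesterol in lipoproteins, was 2.41-fold lower without overlap, while Nceh1 and Abcg1 were counted as lower on values that were mostly not above background. Nceh1 was detected on 2 arrays, and Abcg1 on the EAEcoP array only, so that no direction is given for them. The cholesterol hydroxylase Ch25h was detected in EAEcoI at an NSI of 30.3 and in EAEcoP at 61.8 only, while ENMO lay just below the healthy control, at 11.2. The lipoprotein receptor Lrp1 was 2.51-fold higher with T cells, at an NSI of 191 to 482 against 123 to 130.2. Of 7 fatty acid genes, none was lower and 1, Fads1, was higher past the spread, and of 7 genes of the isoprenoid branch 1, Dhdds, was higher, both with no detection without T cells and no fold given.

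Lists of cell type markers were set beside these values, and their part in the result was not tested. The summed NSI of the 13 oligodendrocyte genes was 3125 to 6872 with T cells and 6480 to 7959 without, with 2 genes lower and 4 higher with T cells past the spread. The transcription factor Sox10, the brightest of them, gave an NSI of 4908 for the ENMO array, 1134 for the EAEcoI array and 1235 for the EAEcoP array, and of 3644 to 5220 without T cells, so that its EAE arrays were low as for Hmgcs1, but ENMO was not. Mog was 3.54-fold lower with T cells without overlap, while Mbp and Mag were 3.09-fold and 4.04-fold higher. The 10 myeloid genes summed to 3868 to 15541 with T cells and 2150 to 3763.5 without, with 5 higher and 1 lower. Tyrobp, the brightest, gave an NSI of 14042 for the ENMO array, 4633 for the EAEcoI array and 2516 for the EAEcoP array, against 1247 to 2653 without T cells. For the 5 detected T cell genes the sums were 930.3 to 2500.0 and 719 to 1008, with 2 higher, and Cd3d was the brightest.

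The summed NSI of the 9 astrocyte genes was 298.5 to 749.9 with T cells and 278 to 487 without (2 lower, 1 higher), and that of the 8 neuronal genes was 628.5 to 817 and 365 to 1012 (2 higher). Schwann cell genes summed to 122 to 474 and 84.8 to 168 (1 higher of 4), adipocyte genes to 292 to 2781 and 183 to 481 (1 higher of 4) and skeletal muscle genes to 1047 to 1487 and 847.5 to 1733 (1 higher of 3). Of 8 reference genes, 4 were higher with T cells past the spread and none was lower, with a median of 0.85.

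Profiles over the 6 arrays were compared by the root mean square difference of log2 values, each gene centred on its own mean. Closest to the mean profile of the 7 measured members, out of 6113 genes detected on all arrays, were Ampd3 at 0.10, Dcst1 and Med27 at 0.11, and Spring1 and Septin9 at 0.12, while the median over all genes was 0.60. The mean profile of the members itself was shallow, from -0.34 in EAEcoP to 0.31 in NMO-IgG only, since the differences of Hmgcs1 and Sqle were averaged with members that differed little. Ampd3 had an NSI of 23.7, 18.9 and 20.1 with T cells and of 24.7 to 30.4 without.

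The promoters were read for motifs because the enzymes are known to share sterol-dependent control. The RefSeq table (GRCr8) held 6 of the 8 members, from 250 bases before to 50 after the listed start, and not Sqle or Fdft1. Letters were searched on both strands, and TCACNCCAC includes CACNCCAC. CCAAT was found for Hmgcs1, Idi1, Fdps and Lss, 4 of 6, and in 37.5% of 33365 promoters. GGGCGG was found for Hmgcs1, Fdps, Lss, Cyp51 and Dhcr7, 5 of 6, and in 33.1% of all. CACNCCAC and TCACNCCAC were found in none of the 6, and in 5.80% and 1.12% of all. Hmgcs1, lower with T cells by its brighter probe, and Idi1, which differed little, are shown with CCAAT and GGGCGG on either strand in capitals. For Hmgcs1, 250 bases upstream of the start are given, at chr2:53382054-53382303 (plus strand). For Idi1, 120 bases are given, at chr17:66547525-66547644 (minus strand). The listed start of Hmgcs1 lies inside the span given for the gene above.
Hmgcs1: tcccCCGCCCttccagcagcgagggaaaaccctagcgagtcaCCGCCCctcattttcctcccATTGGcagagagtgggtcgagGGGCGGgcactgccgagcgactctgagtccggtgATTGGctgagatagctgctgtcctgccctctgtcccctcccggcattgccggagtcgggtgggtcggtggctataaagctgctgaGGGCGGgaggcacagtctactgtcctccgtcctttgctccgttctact
Idi1: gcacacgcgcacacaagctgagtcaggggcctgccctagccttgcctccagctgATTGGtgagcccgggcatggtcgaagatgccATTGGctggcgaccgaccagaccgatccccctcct
Both carry CCAAT on the reverse strand (printed as ATTGG) at 2 positions, which is a description of these letters and not of binding.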

How the data were processed

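RNA of fixed spinal cord sections was amplified and hybridised by the authors to 1-colour whole rat genome microarrays, 6 arrays on 2 slides. The deposited scanner files hold spot intensities from Agilent Feature Extraction 10.1.1.1, background-subtracted within each array. A deposited table with 1 intensity per target is not normalized between arrays and served as an alternative.

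The processed intensities were taken to log2 after spots marked as outliers had been left out (none were spots of the members), averaged per probe and quantile-normalized, as the study's methods state (NSI, 1.59 to 188852.3). A gene was represented by its brightest probe, and all probes of the members are given. Probes detected on at least 1 array were tested (27488) with limma 3.58.1 in R 4.3.3, with Benjamini-Hochberg adjustment, for T cells, for ENMO, EAE and no T cells as 3 groups, and for antibody with T cells as a block. Only the fit for T cells was tested on simulated data, which held no differences between antibodies or slides. Where a probe was not detected, a limit for the fold was set against the lowest NSI of detected probes on that array (5.59 to 11.9). The probe's own NSI was used where it was higher. Undetected probes could lie above that lowest NSI, as Fdps A_44_P226759 did in ENMO, at 22.0 against 8.19. Such folds are therefore nominal and not true lower limits. The number of arrays limits the precision, and p-values measure the spread between arrays of pooled RNA and not between animals. In the fit for T cells, the arrays on each side also differed in antibody and slide. The spread between them includes these differences, and they are not replicates of 1 condition. No replicate numbers pair the arrays.

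The members and lists were chosen with earlier results of these data known. Genes of other lists were named where their brightest probe was past the spread between spots with T cells, at most 6 per list. Marker genes were named for their level. Mog, Mbp, Mag, Ebp, Srebf2 and Ggps1 were named in addition, with their values known, as was the boundary for bright probes, a mean log2 NSI of 11. Some genes counted in these lists are not reported here by name. Symbols were updated through RefSeq (GRCr8) for 20837 of 41012 probes. Where alternatives were tried, they are given in the closing section.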

Additional observations from a re-analysis of the deposited data

Results flagged for a closer look

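With 2 of the 4 Fdps probes, differences between antibodies had opposite signs with and without T cells. With probe A_44_P432965, NMO-IgG minus control IgG was -1.43 (log2) with T cells and 3.68 without, and control IgG minus no antibody was 1.92 with T cells and -3.72 without. With probe A_44_P928928, control IgG minus no antibody was 2.01 with T cells and -3.82 without. Both signs exceeded the spread between spots on either side, but the difference was not tested, since each value compares 1 array with another. Neither probe was detected for control IgG only, so the folds without T cells are set against the lowest detected NSI of that array. For the first probe, NMO-IgG only stood 7.35-fold and healthy control 7.58-fold above that NSI. For the second probe, healthy control stood 3.75-fold above that NSI. In each pair of arrays compared here, the higher array was on slide 2 and the lower on slide 1. A response to antibody that differs with T cells therefore cannot be told apart from a difference between slides.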

How the results depend on the processing

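The log2 difference of all T minus all non-T for Hmgcs1 stayed negative and past the spread under all 18 alternatives (-3.50 to -0.90). For Sqle this held under all 19 (-1.81 to -0.94). The other Hmgcs1 probe alone was not among the 18 alternatives, and it gave -0.51, within the spread. The difference of Hmgcs1 moved to -0.90 with the deposited values per target, to -1.56 with the mean over probes and to -3.50 within slide 2. Leaving out single arrays gave -3.39 (without ENMO) to -2.20. The deposited values, not normalized between arrays, shifted the median of all targets by 0.69, and relative to it Hmgcs1 stood at -1.59 and Sqle at -1.63. Hmgcs1 was called by limma without ENMO (1 member against 0), with 0 called when any other array was left out. In the other settings fitted by probe, the lowest adjusted p of a member was 0.211 (limma). With the mean over probes and with the deposited values, 0 members were called. Over all probes, limma called 212 without ENMO and 3 without EAEcoI against 0 for T cells. For NMO-IgG minus control IgG it called 7 without EAEcoI and 252 without control IgG only against 0, none of them a member. The count of 2 members without overlap was 2 to 3 when single arrays were left out, and became 1 with the deposited values and 1 without the Sqle probe matched by enzyme name, and 5 within slide 1 and 4 within slide 2, where fewer arrays are compared. For ENMO minus EAE, Hmgcs1 moved to 1.61 with the normexp background correction (offset 50), 1.64 without background correction, 1.67 with the mean over probes and 3.36 with the local trend removed. Sqle moved to 0.76 with the mean over probes, within the spread, and to 0.36 without the probe matched by enzyme name, and the count of members higher in ENMO became 1 there and 1 with the mean over probes. The count of members lower in ENMO became 0 with normexp and 0 without background correction, and 2 against EAEcoI alone and 2 against EAEcoP alone. Fdps reversed in the antibody comparison with T cells alone, to -1.43 for NMO-IgG minus control IgG and 1.92 for control IgG minus no antibody. The cause was not tested. Differences of Fdps, Lss, Cyp51, Dhcr7 and Idi1 were within the spread as reported and changed sign in 7, 1, 10, 5 and 2 of 18 settings. They passed it in some settings for Fdps (-1.41 to 1.73), Lss (-0.08 to 1.51) and Cyp51 (-0.95 to 0.89). Removal of the local trend, the omission of the Sqle probe and single arrays left out of the ENMO and antibody fits were chosen after seeing the data. No paired analysis was possible because each group has 1 array and no replicate numbers. Blocks shared across groups could be fitted, and T cells minus no T cells was then -2.62 for Hmgcs1 and -1.36 for Sqle with the antibody as a block, and -2.81 and -1.42 with the slide as a block, with no member called.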
